A study of Mus musculus with 4 samples.

Results

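Immune cells were a small fraction of the cells recovered from the postnatal mouse olfactory epithelium, the sheet of the nasal cavity that holds the olfactory sensory neurons. Leukocytes were chosen by their measured counts of 5 genes, as cells with at least 5 unique molecular identifiers (UMIs, 1 per captured transcript) of Cd74, Tyrobp and Fcer1g together, at most 2 UMIs of Omp and at most 2 of Gap43. Cd74 is the invariant chain that escorts MHC class II molecules, Tyrobp and Fcer1g are signalling adaptors of activating immune receptors, and Omp and Gap43 mark mature and immature olfactory neurons. By this rule 187 of 9110 cells were leukocytes, among cells in which 500 or more genes were detected and mitochondrial genes took 10% of UMIs or less, or 2.05% (95% exact binomial interval 1.77 to 2.37%). The cells came from CD-1 mice, an outbred stock with no genetic change or treatment named in the labels, on the day of birth (P0) and on postnatal days 3 (P3), 7 (P7) and 21 (P21), 1 library for each. Cells were freed with papain and sorted, and libraries were made on the Chromium platform. The sample titles call the cells OSNs (olfactory sensory neurons), and the sources used here give neither the gate of the sort nor the number of mice per library. Whether a leukocyte lay in the epithelium, in the tissue beneath it or in blood is not recorded. No difference between ages has a replicate behind it, and age and library cannot be told apart. All intervals below are at 95% and cover counting error only.

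Macrophages of a tissue take up dying cells and debris and tag targets with the complement proteins of the C1q complex. Neutrophils carry granules of antimicrobial proteins and the calcium-binding S100a8 and S100a9, and dendritic cells and B cells display antigens on MHC class II. In the olfactory epithelium, where neurons are replaced throughout life, macrophages are known for the clearance of dead neurons.

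The label of these cells held against markers that the rule did not use. A list of 10 genes shared by leukocytes (among them the phosphatase Ptprc, the actin regulator Coro1a and the surface protein Cd52) summed to 6549 UMIs per 1e6 of the summed UMIs (CPM) in the 187 cells, against 59.5 CPM in the 8923 other cells. At least 1 UMI of the list was present in 186 of the 187 cells and at least 3 UMIs in 181, with a median of 16. The 5 cells that stood exactly at the limit of 5 rule UMIs included 4 with 3 or more UMIs of that list, and of the 3 cells at 4 rule UMIs, just outside, 1 had as many. The limits on Omp and Gap43 removed 5 cells in all. Of the 187 barcodes, 2 also occurred in another library, neither as a leukocyte there. A list of 5 erythroid genes, haemoglobins and the haem enzyme Alas2, gave 3 UMIs over all leukocytes.

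The cells kept held 9192869 UMIs (P0), 17770838 (P3), 8650272 (P7) and 6850885 (P21). Leukocytes were shallower than other cells, with medians of 1634.5, 2938, 2345.5 and 2380.5 UMIs per leukocyte and 3261, 5034, 4710 and 4444.5 per other cell, from P0 to P21. Free RNA gave few UMIs of the marker genes in cells that should lack them. Among 1911 cells with at least 10 Omp UMIs (median depth 5248 UMIs), 0.837% had a UMI of Cd74, 1.36% of Tyrobp, 0.994% of S100a8 and 0.209% of C1qa, while 46.5% of leukocytes (median depth 2276) had one of Cd74, 95.2% of Tyrobp, 20.3% of S100a8 and 40.1% of C1qa. Apoe and Cst3 were widespread, with a UMI in 11.3% and 59.7% of the Omp-rich cells.

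Leukocytes made up 72 of 2691 cells at P0 (2.68%, 2.1 to 3.36%), 69 of 3220 at P3 (2.14%, 1.67 to 2.70%), 26 of 1785 at P7 (1.46%, 0.954 to 2.13%) and 20 of 1414 at P21 (1.41%, 0.866 to 2.18%). The share was lower in the P7 and P21 libraries than in the P0 library, and the intervals of both overlapped that of P0 at its lower end. When each cell was thinned to 1500 UMIs and shallower cells were left out, the shares were 1.58% at P0 (38 of 2400), 1.82% at P3 (58 of 3190), 1.10% at P7 (18 of 1643) and 1.29% at P21 (17 of 1317). No order of the ages can be read from shares that move this much with depth. The sort and the ease with which each cell type comes free of the tissue can also set these shares, which was not tested.

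**Figure D1:**
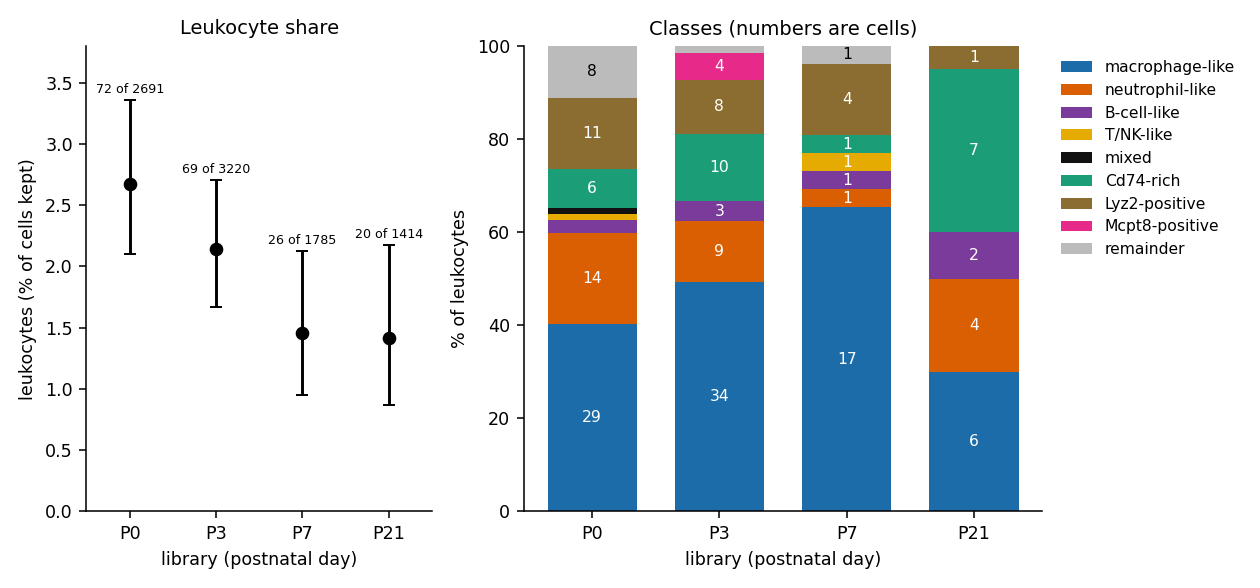
Left, leukocytes as a percentage of the cells kept in each library, with exact 95% binomial intervals and cell numbers. Right, classes as a percentage of the leukocytes of each library, with cell numbers in the bars; from P0 to P21 there were 29, 34, 17 and 6 macrophage-like and 6, 10, 1 and 7 Cd74-rich cells.

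The leukocytes were split by genes of known cell types. A cell was called macrophage-like with at least 2 UMIs of C1qa plus Csf1r, neutrophil-like with at least 10 of S100a8 plus S100a9, B-cell-like with at least 2 of Cd79a, and T/NK-like with at least 2 of Cd3e plus Nkg7. C1qa is a chain of complement C1q, Csf1r the receptor for the macrophage growth factors Csf1 and Il34, Cd79a a chain of the B cell receptor complex, Cd3e a chain of the T cell receptor complex and Nkg7 a granule protein of cytotoxic lymphocytes. This gave 86 macrophage-like, 28 neutrophil-like, 8 B-cell-like and 2 T/NK-like cells, 1 cell that passed more than 1 rule, and 62 that passed none. The macrophage threshold lay among low counts, with 21 leukocytes just below it, at 1 UMI, and 9 exactly at it. Near the neutrophil threshold 3 leukocytes had 5 to 9 UMIs and 5 had 10 to 20. The 62 unresolved cells were divided after their values were seen, into 24 with at least 30 Cd74 UMIs, 4 with at least 2 Mcpt8 UMIs, 24 with at least 3 Lyz2 UMIs and 10 others. The unresolved cells had no Cd74 count between 13 and 30 UMIs. These groups are called by their leading genes, and no cell type name is given to them.

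**Figure D2:**
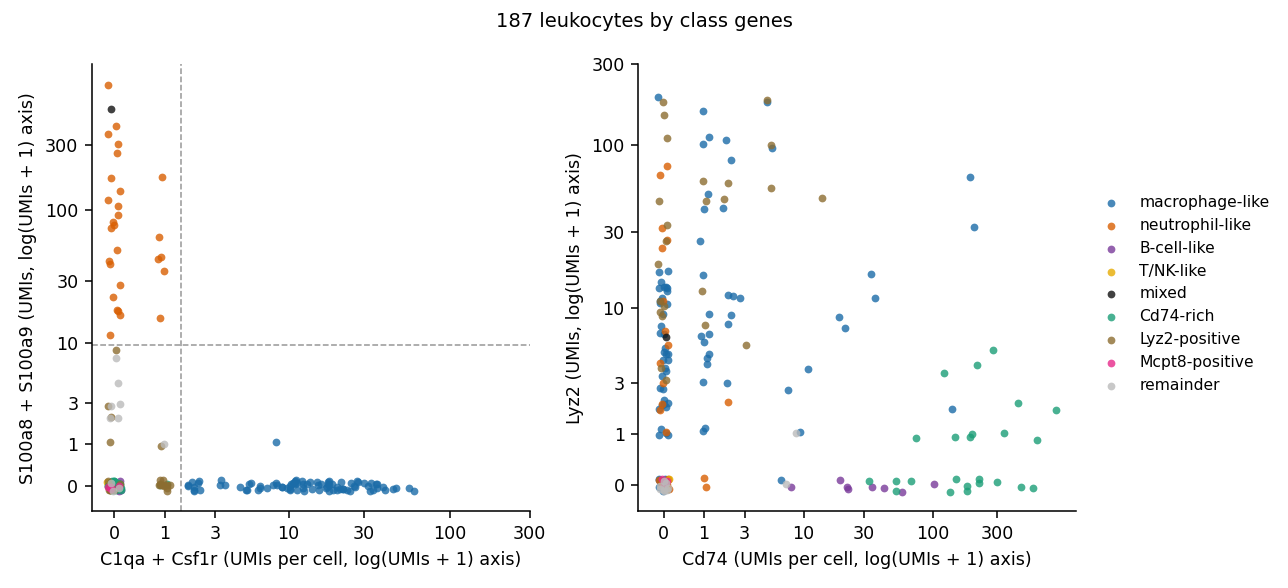
Each point is 1 of the 187 leukocytes, coloured by class, with small random offsets so that equal counts remain visible. Left, C1qa plus Csf1r against S100a8 plus S100a9, in UMIs per cell on log(UMIs + 1) axes, with dashed lines just below the class limits of 2 and 10 UMIs; right, Cd74 against Lyz2, where the 24 Cd74-rich cells lie at 30 Cd74 UMIs or more with at most 5 Lyz2 UMIs.

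Across the libraries the macrophage-like class was the largest at P0, P3 and P7, with 29 of 72 leukocytes (40.3%, 28.9 to 52.5%), 34 of 69 (49.3%, 37.0 to 61.6%) and 17 of 26 (65.4%, 44.3 to 82.8%). At P21 it was 6 of 20 (30%, 11.9 to 54.3%), beside 7 Cd74-rich cells. Neutrophil-like cells numbered 14, 9, 1 and 4 from P0 to P21. They had the lowest median depth of the 3 largest named classes, 1488.5 UMIs, and 972 at P0. B-cell-like cells were 2, 3, 1 and 2, and Lyz2-positive cells 11, 8, 4 and 1. The 4 Mcpt8-positive cells were all in the P3 library, where they were 5.80% of leukocytes (1.60 to 14.2%). A count of 0 allows a share of up to 4.17% of the 72 P0 leukocytes, 11.5% of the 26 of P7 and 15.0% of the 20 of P21. The limits of P7 and P21 lie above the share at P3, and that of P0 lies below it but within its interval.

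The 86 macrophage-like cells were led by Lyz2 (lysozyme), the 3 C1q chains, Tyrobp, Fcer1g, the protease Ctss, Apoe (apolipoprotein E), Cd74 and Cyba (a subunit of the phagocyte oxidase). These genes and every other gene of the cells that were sorted into classes are given as a description, since the classes were cut from the same counts. C1qa (chromosome 4, 136895917 to 136898803, minus strand, mm10 coordinates of GENCODE M21) had 1197 UMIs in 75 of the 86 cells, at 4423 CPM against 1.74 CPM in cells outside the leukocytes. C1qb had 1009 UMIs in 75 cells and C1qc 907 UMIs in 77 cells, and both lie on chromosome 4 beside C1qa. The 3 chains went together from cell to cell, with Spearman correlations over the 86 cells of 0.73 for C1qa with C1qb, 0.79 for C1qa with C1qc and 0.71 for C1qb with C1qc; the cells share 4 libraries and differ in depth. Apoe was the most abundant, with 11725 UMIs in 86 of 86 cells, a median of 116.5 UMIs per cell and a level of 43324 CPM, against 692 CPM in other cells. Of a list of 15 macrophage markers, 15 had a UMI in this class, among them the lipid receptor Trem2 in 73 cells, the chemokine receptor Cx3cr1 in 67 and the calcium-binding Aif1 in 76. S100a8 was at 0 in all 86 cells.

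The sequence before the start of C1qb is shown because C1qb is a leading gene of the class whose 250 upstream bases hold a copy of GAGGAA, the core recognised by the myeloid factor PU.1. The bases run 5′ to 3′ on the minus strand of GRCm38.p6, chr4:136886201-136886450, from RefSeq, with the match in capitals 30 bases before the start. GAGGAA, searched on both strands as GAGGAA or TTCCTC, occurs in 23.3% of 32851 such windows, and a match of letters shows no binding.
C1qb: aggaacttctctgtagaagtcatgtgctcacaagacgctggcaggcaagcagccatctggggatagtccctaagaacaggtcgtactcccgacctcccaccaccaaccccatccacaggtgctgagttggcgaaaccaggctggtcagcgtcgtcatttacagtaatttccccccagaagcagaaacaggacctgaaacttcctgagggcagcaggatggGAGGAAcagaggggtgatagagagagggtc

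Within the macrophage-like class the cells differed. C1qa was at 0 in 11 of 86 cells, and C1qa, C1qb and C1qc were all at 0 in 9, which had entered the class through Csf1r. Of these 9 cells, 5 had at least 40 UMIs of Lyz2, 4 from P3 and 1 from P7, and 0 came from P0 and P21. Genes of perivascular and other resident tissue macrophages were found in part of the class. Pf4, a chemokine, reached 3 UMIs or more in 27 of 86 cells, and the mannose receptor Mrc1 had a UMI in 35. Lyve1, Cd163 and Folr2, receptors of such cells, had a UMI in 5 cells each, and Timd4, a receptor for dying cells, in 1. Of 6 genes often used for microglia, the macrophages of the brain, P2ry12 had a UMI in 31 cells and Tmem119 in 29, while Sall1 and Siglech were at 0. P2ry12 and Pf4 were found in the same cell in 16 cases, so these genes did not divide the class into separate sets. Cycling cells, with at least 2 UMIs of Mki67 plus Top2a, were 5 of 86, 4 from P3 and 1 from P7. At least 10 UMIs of Ctsk, the collagen-degrading protease of osteoclasts, occurred in 2 cells, 1 at P3 and 1 at P7.

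The comparison of ages in the macrophage-like class asks which genes differed between the P21 and the P0 library. UMIs were summed per library, which gave 16459 from 6 cells at P21 and 59646 from 29 cells at P0, and a gene counted as different when (CPM + 50) differed at least 2-fold. Among 478 genes with at least 20 UMIs in either library, 21 (4.39%) were higher at P21 and 142 (29.7%) lower, and the median log2 change was -0.55. With median-of-ratios scaling, whose size factors differ from the UMI totals by 0.46 on the log2 scale, 54 were higher and 89 lower, so the surplus of lower genes depends in part on the scaling. The limit of 20 UMIs also asks for a higher CPM in the smaller P21 sum. A gene low at P21 is therefore measured more easily than a gene low at P0, and the surplus is not read as a change with age. The median over all measured genes was below 0, and the values below are to be read against it.

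Lyz2, C1qa and the lysosomal protease Ctsd stood higher in the P21 cells. C1qa had 22 to 36 UMIs per cell with a median of 32 in the 6 P21 cells, against 0 to 24 with a median of 10 in the 29 P0 cells; the ranges overlapped, and median depth was 2674 UMIs at P21 and 1975 at P0. Summed C1qa was 5030 CPM (4477 to 5632) at P0, then 2747 CPM at P3, 5910 CPM at P7 and 11301 CPM (9735 to 13047) at P21. Csf1r, the other class gene, was 1408 CPM at P0, then 721 CPM at P3, 1003 CPM at P7 and 1580 CPM at P21. Since both chose the class, these values are a description. C1qb, which was not used, was 5772 CPM (4670 to 7056) at P21 and 5147 CPM (4587 to 5756) at P0, a difference within the counting intervals. C1qc was 7109 CPM (5879 to 8519) at P21 and 4795 CPM (4255 to 5384) at P0. Lyz2 was 15797 CPM at P21 and 3772 CPM at P0, a ratio of 4.19 (3.49 to 5.03), with 2 to 99 UMIs per cell at P21 and 0 to 75 at P0. Ctsd was 8445 CPM at P21 and 3437 CPM at P0, a ratio of 2.46 (1.97 to 3.06), with a UMI in 6 of 6 P21 cells and 27 of 29 P0 cells. Apoe was 111428 CPM at P21 and 57154 CPM at P0, just under the limit of 2-fold, while in other cells Apoe was 475 CPM at P21 and 453 CPM at P0.

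Of the macrophage list, 12 genes besides the class genes C1qa and Csf1r were measured in this comparison, with 2 higher (Adgre1 and Lyz2), 0 lower and a median log2 change of 0.48; with median-of-ratios scaling 5 were higher. Adgre1, which encodes the macrophage surface protein F4/80, was 972 CPM at P21 and 402 CPM at P0, with a UMI in 5 of 6 and 17 of 29 cells. Of 14 measured genes for lysosomes and uptake of dying cells, Ctsd was higher and Spp1 (osteopontin) lower, with a median of 0.53; with median-of-ratios scaling 7 were higher. Spp1 had 0 UMIs in 6 P21 cells and 20 UMIs in 8 of 29 P0 cells, 45% of them in 1 cell. Against a floor of 3 UMIs for the library, Spp1 was at least 1.84-fold lower at P21, a bound under 2-fold. Spp1 passed the limit of 20 UMIs through P0 alone and could only be called lower, so nothing is read from its call. Among genes for signalling, the chemokine Cxcl16 (ratio 3.08, 1.52 to 6.19), the interferon-gamma receptor chain Ifngr1 (2.72, 1.47 to 4.96) and the nucleotide receptor P2ry6 (2.97, 1.5 to 5.79) were higher at P21. The membrane proteins Tmem176a (2.60) and Tmem176b (2.59), Serinc3 (2.90) and Fam105a (2.52) completed the 10 genes with the largest log2 change. Serinc3 also differed in other cells, at 96.0 CPM at P21 and 30.1 CPM at P0, and 1 P21 macrophage-like cell held 50% of its 16 UMIs. The most reduced genes besides Cd209f and Spp1 included the small GTPase Rac2, with 1 UMI at P21 and 43 UMIs in 21 cells at P0, Pycard (an inflammasome adaptor, 1 UMI at P21 and 32 at P0), Plin2 (a lipid droplet protein, 1 at P21 and 25 at P0) and the antioxidant enzyme Prdx5 (1 at P21 and 42 at P0). Each of these rests on 6 cells at P21. Transcripts of olfactory neurons also differed: the microtubule regulator Stmn1 had 3 UMIs in 2 of 6 P21 cells and 30 UMIs in 11 of 29 P0 cells, and the tubulin Tubb3 had 1 UMI at P21 and 23 UMIs in 5 cells at P0. In other cells Stmn1 was 2266 CPM at P21 and 3533 CPM at P0, and the part of neuronal RNA in the lower genes was not tested.

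Of 12 genes in the resident macrophage list 6 were measured, with 0 higher and 2 lower, Cd209f and Pf4. The median log2 change of the 6 was -0.37, and 0.05 with median-of-ratios scaling. Both lower genes reached the minimum of UMIs through P0 alone, and Cd209f, with 0 UMIs at P21, could only be called lower. Among all 478 measured genes 29.7% were lower, so nothing is read from the count of 2. Pf4 was 2347 CPM (1974 to 2770) at P0, then 771 CPM at P3, 1182 CPM at P7 and 790 CPM (421 to 1351) at P21. At least 3 Pf4 UMIs were found in 12 of 29 P0 cells, 8 of 34 P3 cells, 6 of 17 P7 cells and 1 of 6 P21 cells. Cd209f, a C-type lectin, had 50 UMIs in 6 of 29 cells at P0 and 0 UMIs in the 34, 17 and 6 cells of the later libraries. Against a floor of 3 UMIs per library, Cd209f was at least 38.8-fold lower at P3, at least 15.6-fold lower at P7 and at least 4.6-fold lower at P21, each against the same P0 library. All 6 Cd209f cells had at least 3 Pf4 UMIs, and the largest single cell held 36.0% of the Cd209f UMIs.

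**Figure D3:**
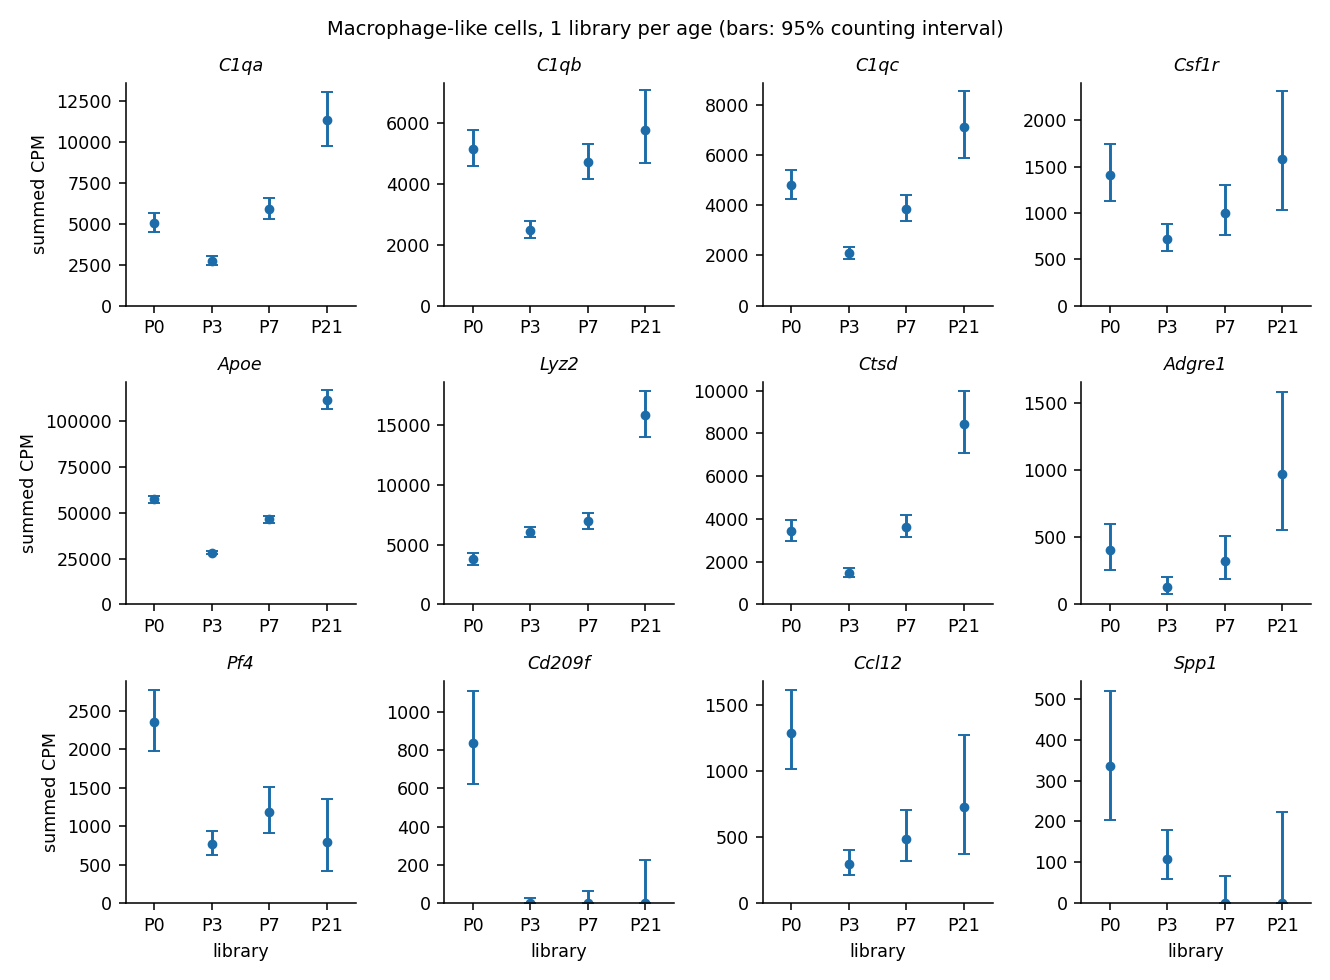
Summed levels in CPM of 12 genes in macrophage-like cells (29, 34, 17 and 6 cells from P0 to P21), with exact 95% Poisson intervals; each axis starts at 0. Apoe, Lyz2, Ctsd and C1qa are highest at P21, Cd209f is seen at P0 only, and all C1q chains are lowest at P3. From P0 to P21, 2, 5, 2 and 0 of the cells had no UMI of C1qa, C1qb and C1qc.

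The P3 and P7 libraries, set beside the same P0 library after the cell numbers were seen, gave larger classes to compare. At P3, 127 of 1090 measured genes (11.7%) were higher than at P0 and 46 (4.22%) lower; at P7, 23 of 525 (4.38%) were higher and 25 (4.76%) lower. In the P3 cells 5 of 6 measured resident macrophage genes were lower. Stab1, a scavenger receptor, was 939 CPM at P0, then 173 CPM at P3, 698 CPM at P7 and 851 CPM at P21. Mrc1 was 604 CPM at P0, then 159 CPM at P3, 376 CPM at P7 and 486 CPM at P21. Gas6, a bridge between dying cells and phagocytes, was 352 CPM at P0, then 50.5 CPM at P3, 107 CPM at P7 and 486 CPM at P21. Ccl12, a chemokine for monocytes, was 1291 CPM at P0, then 296 CPM at P3, 484 CPM at P7 and 729 CPM at P21. Fcgrt, the neonatal Fc receptor, was 939 CPM at P0, then 130 CPM at P3 and 269 CPM at P7. Among the libraries given, each of these stood lowest at P3. The genes most above P0 in the P3 cells included Plac8 (13-fold, 91 UMIs in 7 cells at P3 and 3 UMIs at P0), Vim (10.6-fold), Crip1 (15.2-fold) and S100a4 (58 UMIs in 8 cells at P3 and 0 at P0, at least 8.31-fold). Plac8 is also a marker of monocytes, and the monocyte receptor Ccr2 had a UMI in 13 of 34 cells at P3, against 5 of 29 at P0. The 4 P3 cells with Lyz2 of 40 UMIs or more and no C1q stand among those 34 cells. The P3 class also held the deepest leukocyte, with 21782 of the 138696 UMIs of the class and 0 UMIs of C1qa, C1qb, C1qc and Lyz2. UMIs of cells without C1q enter the total and lower the CPM of the C1q chains. Genes of the stromal list had 61 UMIs in the P3 class, against 5 at P0. The part of these cells and UMIs in the higher and the lower genes of P3 was not tested. At P7 the 3 measured osteoclast genes were higher than at P0 and rested on single cells: Ctsk (58 UMIs) and Mmp9 (84) were each found in 1 of 17 cells, and 1 cell held 130 of the 145 UMIs of Acp5.

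The 24 Lyz2-positive cells had no C1qa and at most 1 UMI of Csf1r, and the choice of the group allowed at most 1 UMI of either. Lyz2 (chromosome 10, 117277331 to 117282321, minus strand) had 1245 UMIs, a median of 36.5 per cell. Plac8 had 217 UMIs in 24 of 24 cells and Lgals3, a galectin of myeloid cells, 166 UMIs in 24. Of 8 monocyte markers 7 had a UMI, including Ms4a6c in 14 cells, Ccr2 in 9 and the classical monocyte antigen Ly6c2 in 4, and Vcan was at 0. Cx3cr1 had a UMI in 13 cells. Apoe was far below the macrophage-like class, at 5202 CPM in Lyz2-positive and 43324 CPM in macrophage-like cells.

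Neutrophil-like cells were led by S100a8 and S100a9, which chose them, at 2276 and 1332 UMIs in 28 of 28 cells and a median of 39 and 22 UMIs per cell. BC100530 (757 UMIs in 17 cells) and Gm5483 (368 UMIs in 18 cells) followed; they are near-identical stefin A copies between which the counts are uncertain. Tyrobp and Fcer1g each had a UMI in 28 of 28 cells. Receptors of neutrophils were common: Cxcr2, the receptor for neutrophil chemokines, was found in 18 cells and Csf3r, the receptor for the growth factor G-CSF, in 16. Granule genes of immature neutrophils were confined to few of the 28 cells. Ngp, Camp and Ltf were seen in 3 cells, 2 at P0 and 1 at P3, and were all at 0 in the other 25. Those 3 cells held 349 Ngp UMIs, 180 Camp UMIs and 63 Ltf UMIs, and 1 of them had a Cxcr2 UMI.

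Within the class, Cxcr2 had a UMI in 6 of 14 P0 cells, 7 of 9 P3 cells, 1 of 1 P7 cell and 4 of 4 P21 cells. S100a8 was 54300 CPM at P0 and 39428 CPM at P3, and 32610 CPM at P21, while the P7 cell had 4 UMIs. Retnlg, a resistin-like secreted protein, had 52 UMIs in 4 cells at P0 and 132 UMIs in 4 cells at P3, and was at 0 in the cells of P7 and P21. The granule-associated Wfdc21 had 53 UMIs in 8 cells at P0 and 42 UMIs in 4 cells at P3, and 0 at P7 and P21. Il1b, an inflammatory cytokine, had 17 UMIs in 3 of 4 P21 cells and 2 UMIs in 1 of 14 P0 cells. With 4 cells at P21 and 1 at P7, no gene was compared further in this class.

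The cell that passed more than 1 class rule came from P0, with 6313 UMIs. It had 366 UMIs of S100a8 and 181 of S100a9, and 13 of Nkg7. It also held the primary granule enzymes Elane (126 UMIs), Mpo (85) and Prtn3 (67), the progenitor gene Ms4a3 (21) and Camp (38), while Ngp and Ltf were at 0. Elane, Mpo and Ms4a3 were at 0 in all 28 neutrophil-like cells.

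The bases before S100a9 are shown because S100a9 defines the neutrophil-like class and its 250 upstream bases hold a copy of TTGCNNAA, which resembles the palindrome of the granulocyte factors of the C/EBP family. They are read 5′ to 3′ on the minus strand of GRCm38.p6, chr3:90695722-90695971, from RefSeq, with the match in capitals 236 bases before the start. TTGCNNAA, searched on both strands as TTGCNNAA or TTNNGCAA, occurs in 9.56% of the same windows.
S100a9: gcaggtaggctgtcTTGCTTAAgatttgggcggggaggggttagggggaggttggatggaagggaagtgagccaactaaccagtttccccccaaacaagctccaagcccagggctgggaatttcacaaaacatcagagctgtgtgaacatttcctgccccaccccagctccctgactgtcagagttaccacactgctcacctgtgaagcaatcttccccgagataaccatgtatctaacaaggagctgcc

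The Cd74-rich cells carried the MHC class II genes. Cd74 had 5996 UMIs in the 24 cells with 30 to 790 per cell; the choice of the group fixed this. H2-Aa and H2-Ab1, the alpha and beta chains of the MHC class II molecule I-A, had 1898 and 1584 UMIs and were present in 24 of 24 cells, as was H2-Eb1 (564 UMIs), the beta chain of I-E. H2-Aa was 17782 CPM in these cells and 0.453 CPM in cells outside the leukocytes. The protease inhibitor Cst3 (2982 UMIs), the leukocyte actin-binding protein Lsp1 (274 UMIs) and the aspartic protease Napsa (161 UMIs in 23 cells) were also among the 10 leading genes. C1qa, C1qb and C1qc were at 0 in all 24 cells, and so was Cd79a. For C1qa and Cd79a the choice of the group allowed at most 1 UMI, since its cells had failed the class limits. Of 13 dendritic cell markers 12 had a UMI, with Siglech at 0, but only Cst3 was among the 10 leading genes. Flt3, the receptor for a growth factor of dendritic cells, and the transcription factor Batf3 had a UMI in 9 cells each, and Zbtb46 in 4.

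Genes of the known dendritic cell types were each found in part of this group, with some overlap. Cd209a or Mgl2, lectins of the type 2 conventional cells, had a UMI in 13 of 24 cells and Xcr1 or Clec9a, receptors of the type 1 cells, in 5, with 3 cells positive for both sets. By library, Cd209a or Mgl2 was found in 1 of 6 P0 cells, 5 of 10 P3 cells, 1 of 1 P7 cell and 6 of 7 P21 cells, and Xcr1 or Clec9a in 3 of 6 P0 cells, 1 of 10 P3 cells, 0 of 1 P7 cell and 1 of 7 P21 cells. Irf8, a transcription factor of the type 1 cells, had 37 UMIs in 5 of 6 cells at P0, 10 UMIs in 2 of 10 at P3, and 0 in the cells of P7 and P21. Ccl17, a chemokine for T cells, had 51 UMIs in the P7 cell and 111 UMIs in 5 of 7 cells at P21, and 0 UMIs in the 16 cells of P0 and P3 together. Ccr7, the receptor that leads dendritic cells to lymph nodes, was found in 2 cells. Median depth in this group was 3844, 4283, 3332 and 6203 UMIs from P0 to P21. Cycling cells were 4 of 24.

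**Figure D4:**
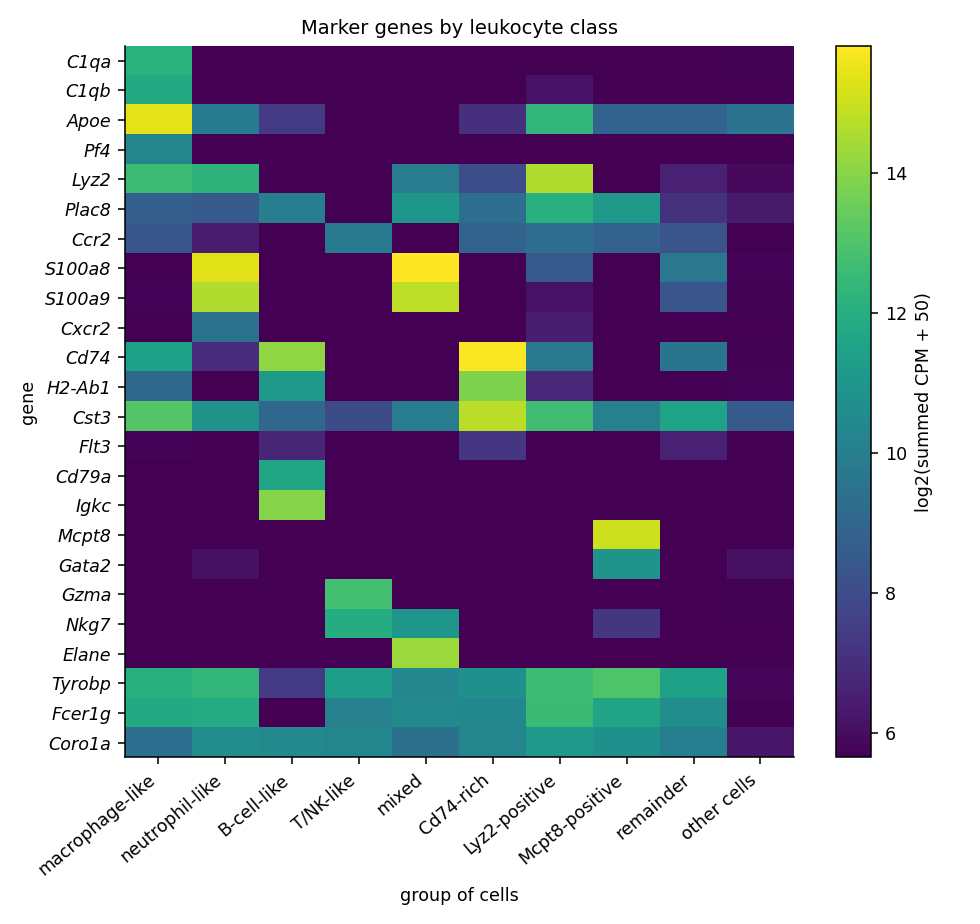
Log2 of summed CPM + 50 for 24 genes (rows) in each group of leukocytes and in all other cells (columns). C1q genes mark the macrophage-like column, S100a8 and S100a9 the neutrophil-like and mixed columns, Cd74 and H2-Ab1 the B-cell-like and Cd74-rich columns, and Mcpt8 the Mcpt8-positive column.

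The sequences before H2-Aa and H2-Eb1 are shown because the MHC class II genes were found in the same cells and both windows hold CTGATTGG, the Y box bound by NF-Y, shown in capitals. H2-Aa is given on the minus strand of GRCm38.p6, chr17:34287824-34288073, and H2-Eb1 on the plus strand, chr17:34305617-34305866, 250 bases each, 5′ to 3′, from RefSeq. The first base of the match lies 51 bases before the start of H2-Aa and 62 bases before that of H2-Eb1. CTGATTGG, searched on both strands as CTGATTGG or CCAATCAG, occurs in 3.83% of the 32851 windows. An annotated antisense transcript, Gm20513, overlaps the H2-Eb1 window.
H2-Aa: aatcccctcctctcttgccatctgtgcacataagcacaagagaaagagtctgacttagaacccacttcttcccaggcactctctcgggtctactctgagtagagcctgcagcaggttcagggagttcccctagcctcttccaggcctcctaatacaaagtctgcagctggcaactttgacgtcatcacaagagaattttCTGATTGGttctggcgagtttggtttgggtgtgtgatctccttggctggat
H2-Eb1: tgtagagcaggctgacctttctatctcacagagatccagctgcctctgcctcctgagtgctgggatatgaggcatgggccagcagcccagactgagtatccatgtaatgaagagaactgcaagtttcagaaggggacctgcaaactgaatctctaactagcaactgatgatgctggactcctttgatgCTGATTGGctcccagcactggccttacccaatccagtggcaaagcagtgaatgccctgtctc

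Over all leukocytes, the P21 library stood apart from the P0 library in MHC class II. The sums were 67095 UMIs from 20 cells at P21 and 145046 UMIs from 72 cells at P0. Among 1198 measured genes, 57 (4.76%) were at least 2-fold higher at P21 and 175 (14.6%) lower, with a median log2 change of -0.33; with median-of-ratios scaling, whose size factors differ from the UMI totals by 0.26 on the log2 scale, 78 were higher and 118 lower. Here too the limit of 20 UMIs is passed more easily in the larger P0 sum, so genes low at P21 are favoured among those measured. Of 6 measured MHC class II presentation genes 5 were higher and 0 lower, with a median log2 change of 2.04. H2-Aa was 2875 CPM at P0, then 2292 CPM at P3, 1079 CPM at P7 and 14874 CPM at P21, a ratio of P21 over P0 of 5.17 (4.61 to 5.81). H2-Ab1 was 1944 CPM at P0, then 2152 CPM at P3, 1079 CPM at P7 and 12728 CPM at P21, a ratio of 6.55 (5.72 to 7.52). Both stood highest at P21 and lowest at P7. Cd74, which chose the cells, was 8156 CPM at P0, then 9543 CPM at P3, 7614 CPM at P7 and 43774 CPM at P21, while Tyrobp was 4206 CPM at P0, then 3684 CPM at P3, 4742 CPM at P7 and 2891 CPM at P21. Fcer1g was 3806 CPM at P0, then 2719 CPM at P3, 3839 CPM at P7 and 2683 CPM at P21. H2-Eb1 (ratio 5.01, 3.90 to 6.48) and the peptide-loading chain H2-DMa (4.06, 2.74 to 6.08) stood likewise. A UMI of H2-Aa was present in 7 of 72 P0, 15 of 69 P3, 2 of 26 P7 and 11 of 20 P21 leukocytes. The Cd74-rich cells were 35% of P21 leukocytes (15.4 to 59.2%) and 8.33% of P0 leukocytes (3.12 to 17.3%), and within them H2-Aa was 24166 CPM at P21 and 17307 CPM at P0.

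The rest of the MHC class II transcripts came from few other cells. In macrophage-like cells H2-Aa had 0 UMIs in 29 P0 cells, 67 UMIs in 5 of 34 P3 cells, 0 in 17 P7 cells and 67 in 2 of 6 P21 cells. At P21, 1 cell held 66 of these UMIs and also 44 UMIs of H2-Ab1 and 203 of the 206 Cd74 UMIs. Outside the Cd74-rich cells, H2-Aa had 94 UMIs in 4 P21 leukocytes, 88 of them in 1 macrophage-like and 1 B-cell-like cell, against 3 UMIs in 1 P0 leukocyte. Without the Cd74-rich cells the log2 change of H2-DMa at P21 over P0 was 0.65, under 2-fold.

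**Figure D5:**
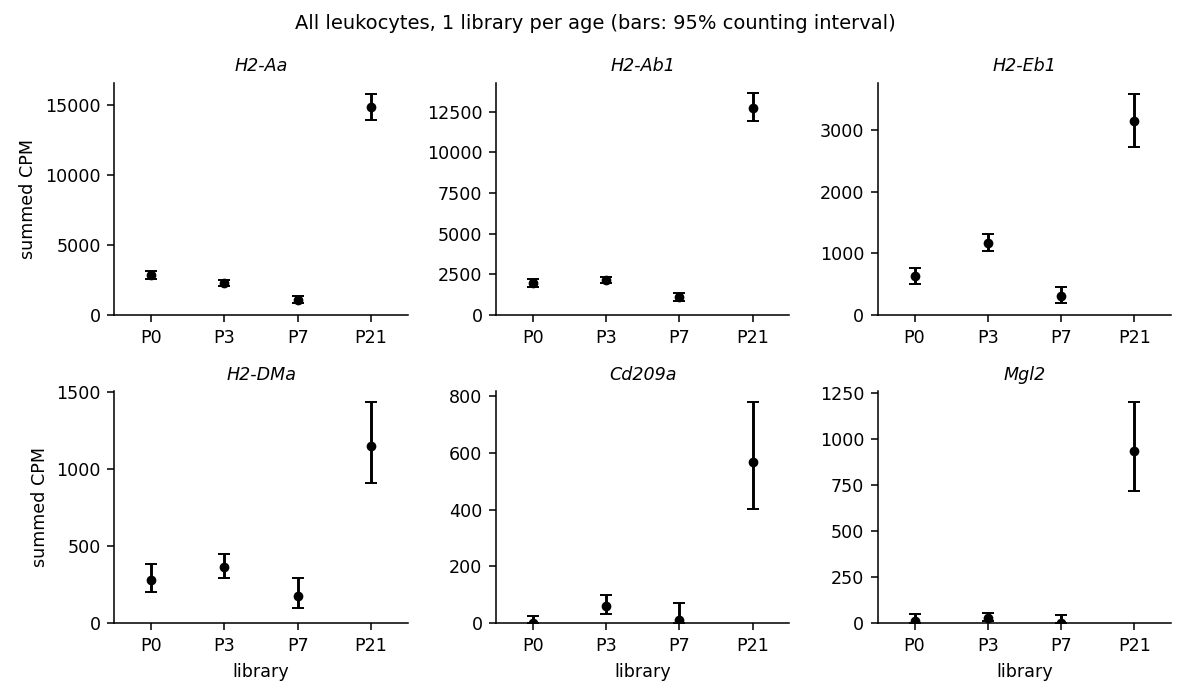
Summed levels in CPM of 6 genes over all leukocytes (72, 69, 26 and 20 cells from P0 to P21), with exact 95% Poisson intervals; each axis starts at 0. All 6 genes are highest at P21, where H2-Aa is 14874 CPM against 2875 CPM at P0.

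Of 13 dendritic cell markers 8 had fewer than 20 UMIs in both libraries and were not compared. Of the other 5, Cd209a, Mgl2, Cst3 and Fscn1 were higher at P21 and Irf8 was lower. Cd209a and Mgl2 reached 20 UMIs at P21 alone, so their difference is given as values and nothing is read from the count, and Cst3 was under 2-fold with the mean over cells. Irf8 had 7 UMIs in 4 of 20 cells at P21 and 69 UMIs in 27 of 72 cells at P0, and 1 P21 cell held 97.2% of the Fscn1 UMIs. Cd209a had 38 UMIs in 6 of 20 leukocytes at P21 and 0 in 72 at P0, at least 27.4-fold higher against a floor of 3 UMIs at P0. Mgl2 had 63 UMIs in 6 cells at P21 and 2 UMIs at P0, a ratio of 68.1 (18.1 to 575). Gm2a, the activator protein of ganglioside breakdown in lysosomes, was 894 CPM at P21 and 152 CPM at P0. H2-DMb2, a chain of the peptide-loading complex, had 55 UMIs in 8 cells at P21 and 11 UMIs in 10 cells at P0.

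Of 8 measured neutrophil markers 7 were lower, among them Camp, Ltf, Ngp and Lcn2 with 0 UMIs at P21. Of 10 measured granule genes 8 were lower, and 5 of 7 without the mixed P0 cell. Genes with 0 UMIs at P21 passed the limit of 20 UMIs through P0 alone and could only be called lower, so nothing is read from these counts. S100a8 was 3696 CPM at P21 and 8866 CPM at P0, and 1 mixed P0 cell held 366 of its 1286 UMIs there. Its log2 change was -1.25, and it was under 2-fold without that cell (-0.83), with median-of-ratios scaling (-0.996) and with the mean over cells (-0.50), which left 6 of the 8 markers lower in each case. S100a9 was 2653 CPM at P21 and 4350 CPM at P0, under the 2-fold limit, and its log2 change of -0.70 became 0.13 with the mean over cells. Without the Cd74-rich cells the log2 changes were -0.34 for S100a8 and 0.20 for S100a9. The Cd74-rich cells held 37408 of the 67095 leukocyte UMIs at P21 and 23921 of the 145046 at P0. Their UMIs enter the totals and lower the CPM of genes of other classes, more so at P21. Hp (haptoglobin) had 3 UMIs at P21 and 111 UMIs in 24 cells at P0, Wfdc21 0 at P21 and 58 UMIs in 9 cells at P0, and Lrg1 0 at P21 and 43 UMIs in 9 cells at P0. Anxa1 (4 UMIs at P21 and 117 at P0), the bacterial-wall-binding protein Pglyrp1 (4 at P21 and 68 at P0) and the transcription factor Cebpb (2 at P21 and 53 at P0) were also among the 10 most reduced, with Cd209f and the stefin A genes BC100530, Gm5483 and Stfa2. In cells outside the leukocytes Cebpb was 11.2 CPM at P21 and 76.2 CPM at P0, and Pglyrp1 13.3 CPM at P21 and 40.1 CPM at P0. Of 8 progenitor genes the 4 measured (Elane, Mpo, Prtn3 and Ms4a3) were lower. The mixed P0 cell held all P0 UMIs of Elane, Mpo and Ms4a3 and 94.4% of those of Prtn3, so this count rests on 1 cell and nothing is read from it. Neutrophil-like cells were 4 of 20 leukocytes at P21 (20%) and 14 of 72 at P0 (19.4%), and cells with Camp, Ltf and Ngp were 0 of 4 of them at P21 and 2 of 14 at P0.

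Over all leukocytes 4.76% of the 1198 measured genes were higher and 14.6% lower, and the other lists stood on both sides of these shares. None of 14 measured macrophage markers, 9 measured shared leukocyte genes, 15 genes for lysosomes and uptake, 7 Fc and paired receptors, 3 interferon-response genes and 3 genes of dissociation stress reached 2-fold in either direction. Of 6 measured complement genes Cfp (properdin) was higher and C5ar1, the receptor for the fragment C5a, lower, and with the mean over cells 0 were higher. Of 6 chemokines and cytokines Cxcl16 was higher and Ccl12, Ccl6 and Pf4 lower. Of 7 chemokine and cytokine receptors Il1r2 was lower, and of 4 genes for iron and haem Ftl1 was lower. With median-of-ratios scaling 0 of these 4 iron and haem genes were lower. Of 4 olfactory neuron genes Stmn1 and Tubb3 were lower. The 2 measured NK and innate lymphoid genes, Gzma and Nkg7, were lower, and 1 gene of that list was measured without the mixed cell. Gzma had 34 UMIs, all in 1 T/NK-like cell. Nkg7 had 11 UMIs in the P0 T/NK-like cell and 13 in the mixed P0 cell. Both genes reached the minimum of UMIs through P0 alone and could only be called lower, so nothing is read from this count. Of 7 myeloid transcription factors Id2 was higher and Cebpb and Irf8 lower, and with the mean over cells 0 of the 7 were higher. Of 4 B cell genes Igkc was higher, while with the mean over cells all 4 were (Igkc, Cd79b, Ighm and Cd37), with 2 B-cell-like cells in each library.

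B-cell-like cells had the genes of cells with a surface receptor. In the 8 cells, the light chain gene Igkc had 278 UMIs, the heavy chain gene Ighm 72, Cd79b 59 and Cd79a (the class gene) 55, each with a UMI in 8 of 8. Ms4a1, which encodes CD20, had 21 UMIs in 7 cells and Ighd, the IgD heavy chain of naive cells, 6 UMIs in 3. Vpreb3, found in immature and transitional B cells, had 28 UMIs in 5 cells, while Rag1, Rag2, Dntt and Igll1 of B cell progenitors and Jchain of plasma cells were at 0. Tyrobp had 2 UMIs in these cells and Fcer1g 0, so they entered through Cd74 (306 UMIs).

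T/NK-like cells were 1 at P0 and 1 at P7, and their genes were chosen after the values were seen. Both had Nkg7 (8 to 11 UMIs), the NK receptor Ncr1 (2 to 5) and Klrb1c (1 each), and Cd3e was at 0, with 14 UMIs of Cd3g. Gzma, a granzyme, had 34 UMIs and Ccl5 101 UMIs, each in 1 of the cells.

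The 4 Mcpt8-positive cells, all from P3, had 330 UMIs of Mcpt8 (chromosome 14, 56082166 to 56085273, minus strand), a protease of basophils, with 2 to 172 per cell. Prss34, a further basophil protease, had 47 UMIs in 3 cells, and the IgE receptor chain Ms4a2 and the transcription factor Gata2 had a UMI in 4 of 4. The mast cell proteases Mcpt4, Cma1 and Tpsb2 and the receptor Kit were at 0, and Cpa3 had 15 UMIs in 1 cell. The chemokines Ccl9 (54 UMIs in 4 cells) and Ccl6 (28 UMIs in 3 cells) were among the leading genes. The 10 remaining cells, 8 of them at P0, had a median of 925.5 UMIs; 4 of them had a UMI of S100a8 and 3 of Csf3r.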

How the data were processed

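Single-cell RNA sequencing counts of UMIs per gene and cell were used as the authors deposited them, as whole numbers with no normalization; tools in the submitters' processing notes are Seurat and Cell Ranger 2.1.1, with the build mm10, and any filter on cells before deposit is not given in the sources used here. Of the deposited cells 16 failed the limits on genes and mitochondrial UMIs. Within each library, UMIs of a class were added up and expressed as CPM. A gene was measured with at least 20 UMIs in either library and called with a 2-fold difference of CPM + 50, with no test, since each age has 1 library. Intervals are exact conditional binomial for ratios of CPM, exact Poisson for levels and Clopper-Pearson for shares. A count of 0 was set to 3 counts per library for bounds. The contrast was tested on simulated sums drawn without differences between cells, so the simulation does not measure the spread from cell to cell. Scrublet (scanpy 1.11.5) marked 29, 33, 8 and 1 cells from P0 to P21, of which 3 were leukocytes; these were kept, and an alternative removed the 58, 83, 25 and 16 highest scores.

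The members, classes and gene lists were chosen with earlier results of these data known. Named genes are the rule and class genes, the 10 leading genes of each class of 5 or more cells, the 10 largest and 10 smallest changes of P21 over P0 in all leukocytes and in macrophage-like cells (without mitochondrial, ribosomal, haemoglobin and sex-linked marker genes, genes with over 50% of their UMIs in a single cell, and genes under 2 times the level in other cells), and 2 to 4 members of each list past the limit; others were chosen after their values were seen. Coordinates are from GENCODE M21 and sequences from RefSeq (GRCm38.p6), where 8 of 11 genes looked up had an entry; C1qa, Tyrobp and H2-Ab1 had none. Analyses used Python 3.11.15, numpy 2.4.6, pandas 2.3.3 and scipy 1.17.1. A gene of the olfactory neuron list is not reported here.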

Additional observations from a re-analysis of the deposited data

Results flagged for a closer look

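Lymphocyte genes appeared in cells that the leukocyte rule leaves out. In all, 11 other cells had at least 2 UMIs of Cd3e plus Nkg7, with 0 in the P0, 6 in the P3, 3 in the P7 and 2 in the P21 library, and they are reported because they lie outside every comparison above. All 11 had at least 5 UMIs of the list of shared leukocyte genes and 0 UMIs of Cd74, Tyrobp and Fcer1g. By the same measure 2 cells outside the leukocytes passed the limit for Cd79a, 3 that for C1qa plus Csf1r and 1 that for S100a8 plus S100a9. The shares of leukocytes given above do not count these cells.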

How the results depend on the processing

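No paired analysis was possible because each age has 1 library, and for the same reason no replicate could be left out. The leukocyte share was within its main interval in 23 of 24 values, the macrophage-like share in 35 of 36 and the neutrophil-like share in 29 of 32. The exceptions were the values at P0 after thinning to 1500 UMIs (leukocytes 1.58% of cells, macrophage-like 52.6% and neutrophil-like 5.26% of leukocytes) and the neutrophil-like share at P7, which was 0% after thinning and 0% with class limits of 3, 20, 3 and 3 UMIs. Thinning leaves out shallow cells, and the P0 neutrophil-like cells had a median of 972 UMIs. Counts of genes at least 2-fold different between P21 and P0 moved most with the minimum of UMIs. In all leukocytes 205 were higher and 359 lower with no minimum, 31 higher and 72 lower with at least 50 UMIs, 98 lower with 100 CPM added, 34 higher without the Cd74-rich cells and 65 lower with P7 as the earlier library. In macrophage-like cells 54 were higher and 89 lower with median-of-ratios scaling, 1087 higher and 1409 lower with no minimum, 8 higher and 28 lower with at least 50 UMIs, and 82 higher and 430 lower with P3 as the earlier library. Of 20 genes named by rank in each comparison, 5 of 240 log2 changes had the opposite sign over all leukocytes and 0 of 240 in macrophage-like cells; a few were at 0, such as Cd209f with P3 or P7 as the earlier library. The reversed log2 changes were 3.62 for BC100530, 2.45 for Gm5483, 0.38 for Stfa2 and -0.31 for Gm8730 with P7 as the earlier library, and -0.22 for Mgl2 without the Cd74-rich cells. The alternatives without Cd74-rich cells, without the mixed cell, without the Cd74-rich P21 macrophage-like cell and with C1qa alone as the macrophage gene were chosen after seeing the data. Few cells limit all results: 20 leukocytes and 6 macrophage-like cells at P21.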

Other observations

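Some genes that differed between libraries in leukocytes differed in the other cells too. Ly6e, a surface protein of many immune cells, was 16.8 CPM in P0, 447 CPM in P3 and 448 CPM in P7 macrophage-like cells, and in cells outside the leukocytes it was 17.4 CPM at P0, 68.1 CPM at P3 and 67.8 CPM at P7. The transcript 1600014C10Rik was 317 CPM in P3 and 16.8 CPM in P0 macrophage-like cells, and in the other cells 91.3 CPM at P3 and 9.06 CPM at P0. Gm8730, a copy of a ribosomal protein gene whose counts are uncertain, was 1431 CPM in P21 and 159 CPM in P0 leukocytes, and in the other cells 554 CPM at P21 and 78.5 CPM at P0. Cd209f, by contrast, was at 0 CPM in the other cells of P0, and its 50 UMIs there all came from macrophage-like cells.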
